A study of Mus musculus with 2 samples.

Results

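The family of miR-192, miR-194 and miR-215 is encoded in the mouse by 4 genes in a pair of genomic clusters, Mir194-2 with Mir192 on chromosome 19 and Mir194-1 with Mir215 on chromosome 1. These 4 genes were taken by name, after Ensembl identifiers had been matched to GENCODE symbols, from 1973 microRNA genes in the deposited tables, and each of the 4 has a row of its own. They were measured in whole kidney of newborn (postnatal day 0) B6NCrl mice by sequencing the small RNAs in total RNA. The series holds 1 group of 2 samples, each made from the 2 kidneys of 1 pup. Both pups came from the same pregnancy, sex was not collected, and the labels name no treatment and no altered allele. No second tissue or age was compared here, so the results are levels, proportions within the family and the difference between the pups.

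A microRNA gene is transcribed into a hairpin, from which a short mature strand is cut from the 5′ arm or the 3′ arm and loaded onto an Argonaute protein. Bases 2 to 8 of that strand, the seed, select the messenger RNAs it represses. In the adult, miR-192, miR-194 and miR-215 are known from the proximal tubule, the nephron segment that takes back most of the filtered solutes, and also from liver and gut epithelium. Their transcription is known to depend on the hepatocyte nuclear factors, and all of them are known to respond to p53. In renal cells miR-192 is best known for its place in TGF-beta signalling, where it represses the zinc finger repressors Zeb1 and Zeb2. The mouse kidney still forms nephrons at birth.

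The mature sequences are shown first because they decide which counts can be told apart. RefSeq (GRCm38.p6) held all 4 hairpins and their mature strands. Read 5′ to 3′, with the seed in capitals, the 5′ strands were:

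miR-192-5p (Mir192): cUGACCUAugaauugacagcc

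miR-215-5p (Mir215): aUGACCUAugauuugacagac

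miR-194-5p (Mir194-1 and Mir194-2): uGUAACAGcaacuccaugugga

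miR-192-5p and miR-215-5p share the seed UGACCUA, which no other mature mouse strand in the RefSeq table used has (that table is not complete). They differ at 3 positions, C1A, A12U and C20A, with miR-192-5p given first and positions counted from 1 at the 5′ end. Their longest shared run is 10 bases, and each was found in the hairpin of 1 microRNA gene of GENCODE M21. miR-194-5p has a seed of its own, GUAACAG, and is cut from both clusters with 0 differences. Each cluster therefore carries 1 gene of the UGACCUA seed and 1 gene of the GUAACAG seed.

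The 3′ strands of the miR-194 genes do differ, and are shown because they separate the genes where the 5′ strand cannot:

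miR-194-1-3p (Mir194-1): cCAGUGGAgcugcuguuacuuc

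miR-194-2-3p (Mir194-2): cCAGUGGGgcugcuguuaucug

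With miR-194-1-3p first, the differences are A8G, C19U, U20C and C22G, and the first of them lies in the seed. Outside the family, the seed of miR-194-2-3p recurs in miR-6926-5p and miR-7055-5p, and Mir6926 had 2 counts in pup 1 and 1 in pup 2. The seed of miR-194-1-3p and those of miR-192-3p and miR-215-3p occur in no other mature strand of the RefSeq table.

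The whole hairpins of the miR-194 genes are shown with their longest shared run in capitals:

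Mir194-1: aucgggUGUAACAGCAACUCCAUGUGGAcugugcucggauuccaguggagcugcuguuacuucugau

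Mir194-2: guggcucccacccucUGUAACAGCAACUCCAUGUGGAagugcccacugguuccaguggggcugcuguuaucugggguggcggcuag

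That run is 22 bases long and is exactly miR-194-5p. The next base already differs, C23A with Mir194-1 first and position 1 at the start of the run. A read confined to the 22 bases matches both genes equally, whereas a 3′ strand differs between them. A longer read separates them only if its further bases were copied from the hairpin, which was not measured. The tables list reads that match several places apart from gene counts, as 30.3% of all reads in pup 1 and 31.0% in pup 2. How many of these are miR-194-5p is not given, so the counts of Mir194-1 and Mir194-2 are levels without such reads and are uncertain. For Mir192 and Mir215 the longest run shared with any other hairpin of the RefSeq table was 12 and 11 bases.

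On mm10, Mir194-2 (ENSMUSG00000065582.1) spans bases 6264643 to 6264728 of the plus strand of chromosome 19. Mir192 (ENSMUSG00000065523.1) follows on the same strand from 6264844 to 6264932, after 115 bases. GENCODE M21 places neither of them inside another gene. The closest annotated gene is Atg2a, an autophagy gene on the same strand that ends 2308 bases before Mir194-2. On chromosome 1, Mir194-1 (ENSMUSG00000065581.1) runs from 185313319 to 185313385 and Mir215 (ENSMUSG00000065562.1) from 185313581 to 185313692, both on the plus strand and 195 bases apart. Both lie in the non-coding gene 2010103J01Rik, Mir194-1 in its intron and Mir215 in its second exon. On the opposite strand both lie in introns of Iars2, the mitochondrial isoleucyl-tRNA synthetase. Within 10000 bases of each gene, its cluster partner was the only other microRNA gene among the 1894 of the tables that GENCODE M21 places.

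Counts on the strand of the gene came to 5832192 in pup 1 and 3846704 in pup 2 over all named genes, and levels are given as CPM, the counts divided by that total and scaled as is usual for read counts. Mir192 had 3056 counts in pup 1 and 2314 in pup 2, which are 524 and 602 CPM (563 ± 54.8, SD, n = 2). Mir194-2 had 1801 and 1087 counts, or 309 and 283 CPM (296 ± 18.5). These genes of chromosome 19 stood at ranks 95 and 118 of the 1973 genes, well above the median of 8.06 CPM over the 526 genes counted in both pups.

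The chromosome 1 genes were far lower. Mir215 had 65 counts in pup 1 and 35 in pup 2, or 11.1 and 9.10 CPM (10.1 ± 1.45), at rank 252. Mir194-1 had 25 and 12 counts, or 4.29 and 3.12 CPM (3.70 ± 0.83), at rank 296. Mir215 thus lay just above that median and Mir194-1 below it. All 4 genes were above the 0.514 CPM in pup 1 and 0.780 CPM in pup 2 that a count of 0 would allow (3 counts).

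**Figure D1:**
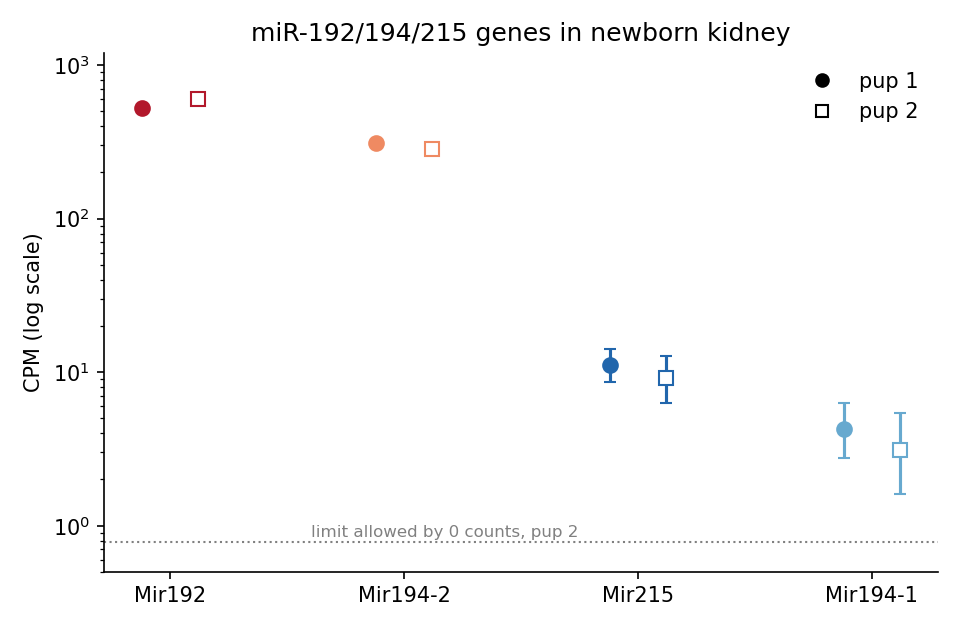
CPM (log axis) of each gene in pup 1 (filled circles) and pup 2 (open squares), with exact 95% Poisson intervals that cover counting error only. Mir192 and Mir194-2 sit between 283 and 602 CPM and Mir215 and Mir194-1 between 3.12 and 11.1 CPM, above the dotted line at 0.780 CPM.

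The order Mir192, Mir194-2, Mir215, Mir194-1 held in both pups, and the ranges of neighbours in it did not overlap. For the closest pair at low counts, the exact 95% Poisson interval was 8.60 to 14.2 CPM for Mir215 against 2.77 to 6.33 for Mir194-1 in pup 1. In pup 2 it was 6.34 to 12.7 against 1.61 to 5.45 CPM. A small RNA read is a whole molecule rather than a fragment of its hairpin, so CPM was not divided by length. Per 100 bases of hairpin, a scale chosen after seeing the data, the mean levels were 632, 344, 9.04 and 5.53 CPM in the same order. Reads per molecule were not measured for any of these microRNAs, and the order is one of counted reads, without the miR-194-5p reads that match both clusters.

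By level, each gene had close company. The genes next above Mir192 were Mir181b-2 (571 ± 154 CPM) and Mir674 (587 ± 22.1), and next below it came Mir467c (556 ± 47.2) and Mir320 (542 ± 9.54). Around Mir194-2 stood Mir223 of myeloid cells (298 ± 26.1) and Mir381 (306 ± 11.9) above, and Mir434 (294 ± 27.8) and Mir671 (290 ± 57.8) below. Mir215 lay between Mir8112 (10.6 ± 1.32) and Mir539 (10.7 ± 2.09) above and Mir1968 (10.1 ± 2.18) and Mir3058 (10.04 ± 0.868) below. Mir194-1 lay between Mir6944 (3.79 ± 0.516) and Mir3064 (3.84 ± 0.0900) above and Mir294 (3.62 ± 0.704) and Mir6971 (3.58 ± 1.19) below. The pups' ranges of every one of these genes overlapped that of the family gene beside it, so these ranks are not resolved. The hairpin of Mir181b-2 shares 22 bases with another, so its level is uncertain as are those of the miR-194 genes. Mir467c, Mir320 and Mir6971 had no hairpin in the RefSeq table and could not be checked for this. With 2 pups there is no profile over samples by which likeness could be measured beyond the level.

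**Figure D2:**
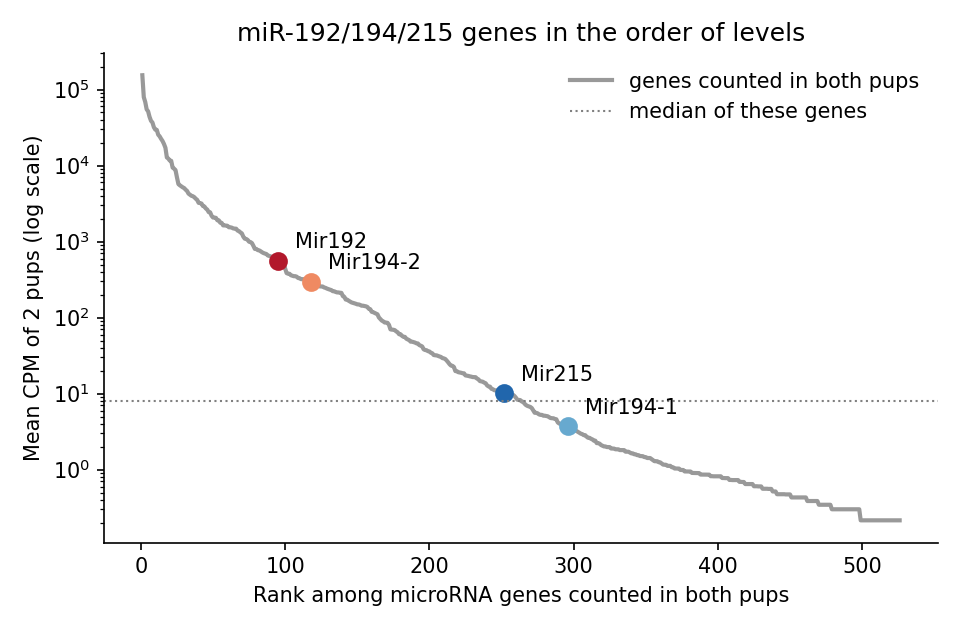
Mean CPM of both pups (log axis) against rank for the 526 microRNA genes counted in both pups, with the 4 genes marked. Mir192 and Mir194-2, at ranks 95 and 118, lie in the upper part of the curve, and Mir215 and Mir194-1, at ranks 252 and 296, lie on either side of the dotted median of 8.06 CPM.

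Within the family, the chromosome 19 cluster supplied nearly all counted reads. Its genes held 98.2% of the family's counts in pup 1, with a 95% Wilson interval of 97.8 to 98.5, and 98.6% (98.2 to 99.0) in pup 2. The ratio of the chromosome 19 to the chromosome 1 cluster was 54.0 in pup 1 (exact 95% interval 43.8 to 67.2) and 72.4 in pup 2 (54.3 to 98.7), intervals that overlap. Between the genes of the shared seed, Mir192 exceeded Mir215 by 47.0-fold in pup 1 (36.8 to 61.1) and 66.1-fold in pup 2 (47.4 to 95.2). Mir194-2 exceeded Mir194-1 by 72.0-fold (48.6 to 112) and 90.6-fold (51.6 to 176), in counts that leave out reads matching both.

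By seed, Mir192 and Mir215 together held 63.1% of the family's counts in pup 1 and 68.1% in pup 2, and the miR-194 genes the remaining 36.9% and 31.9%. The second share lacks the miR-194-5p reads that match both clusters, so it does not give the balance of the seeds in the tissue.

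In the counts, which lack the miR-194-5p reads that match both clusters, the gene of the UGACCUA seed was the higher one inside each cluster. Whether those reads would narrow or turn this order was not measured. On chromosome 19 Mir192 exceeded Mir194-2 by 1.70-fold in pup 1 (1.60 to 1.80) and by 2.13-fold in pup 2 (1.98 to 2.29). Mir192 thus made up 62.9% of that cluster's counts in pup 1 and 68.0% in pup 2, with Wilson intervals of 61.6 to 64.3 and 66.5 to 69.6. The intervals did not overlap, so the proportion differed between the libraries by more than counting error, and it does not depend on how libraries are scaled. On chromosome 1 Mir215 exceeded Mir194-1 by 2.60-fold (1.62 to 4.30) and 2.92-fold (1.48 to 6.17). At these depths no shift between the pups could be detected for that cluster, whose intervals for the Mir215 share ran from 62.2% to 80.4% in pup 1 and from 60.5% to 84.7% in pup 2.

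The chromosome 19 proportion was next set beside other microRNA genes that neighbour each other on a strand, a comparison chosen after seeing the data. Among genes that GENCODE M21 places, there were 54 such pairs within 10000 bases with a mean count of at least 100 for both genes. In log2 units Mir192 and Mir194-2 were 0.93 apart on average, against a median of 2.04 over the pairs, which is rank 43 of 54 in distance. Their log2 ratio moved by 0.33 between the pups, against a median of 0.14, which is rank 5 of 54. The erythroid pair Mir144 and Mir451a moved most, by 2.37. Pairs differ in depth and in reads lost to multimapping, so these ranks are a description of these libraries.

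**Figure D3:**
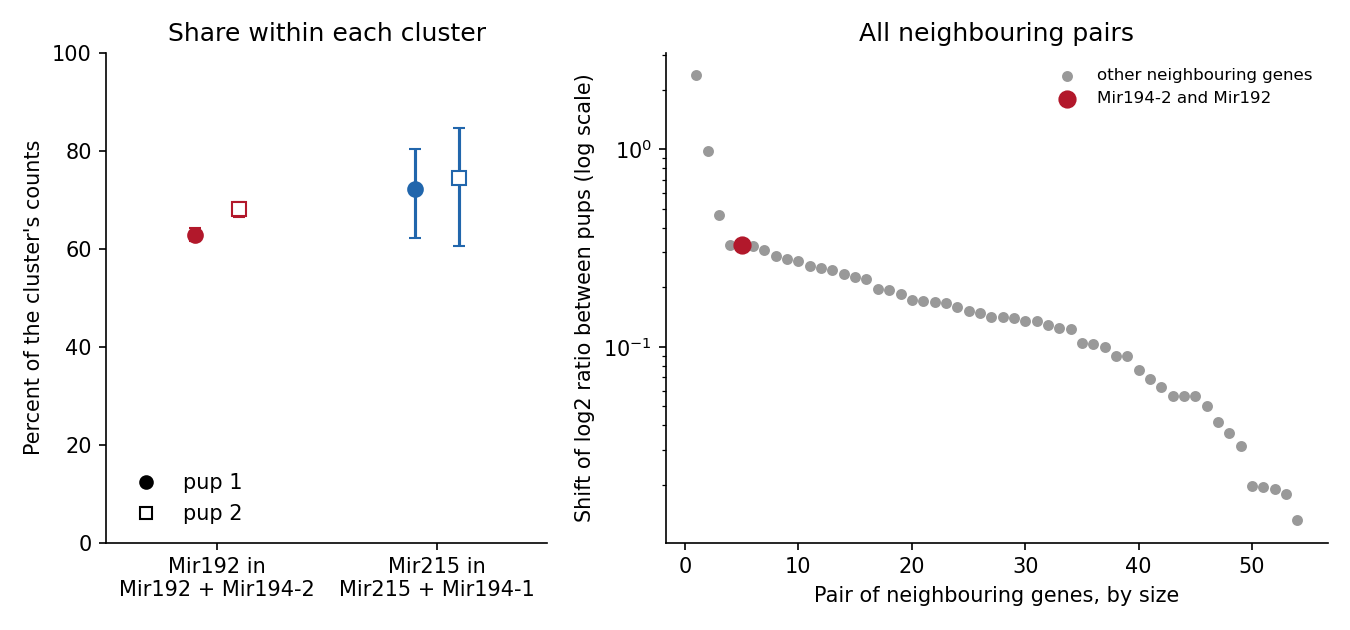
Left, percent of each cluster's counts that belong to Mir192 or to Mir215, in pup 1 (filled circles) and pup 2 (open squares) with 95% Wilson intervals. Right, shift between the pups of the log2 ratio (log axis) for 54 pairs of neighbouring microRNA genes ordered by size, with the pair of Mir194-2 and Mir192 at rank 5 with 0.33.

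Between the pups, Mir192 and Mir194-2 went in opposite directions. They were 1 of 17 among the 54 neighbouring pairs whose genes did so, and 1 of 8 with both genes called by the test that follows. The log2 ratio of pup 2 over pup 1 was 0.18 for Mir192 (95% counting interval 0.10 to 0.26), and an exact binomial test given TMM library sizes put its adjusted p at 4.9e-05. For Mir194-2 it was -0.15 (-0.26 to -0.04), and the same exact test gave an adjusted p of 0.024. Mir215 and Mir194-1 had log2 ratios of -0.30 (-0.95 to 0.30) and -0.45 (-1.61 to 0.57), with adjusted p = 0.49 and 0.59 by that exact test, and their intervals include both directions.

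Thus 1 of 4 family genes was called higher and 1 of 4 lower in pup 2, where 12.7% and 21% of the 324 tested genes were called in these directions and 33.6% in all. The exact binomial test calls smaller ratios at higher counts, as Mir10a was called at -0.08 and Mir194-1 was not at -0.45. Those shares are not matched to the depth of the family genes, so no excess of calls can be read from them. The median log2 ratio of all tested genes was -0.04, and the median absolute ratio was 0.15, to 2 decimals that of Mir194-2. The call of Mir194-2 was lost with library totals (adjusted p = 0.067), with DESeq2 size factors (0.0501) and with no filter on low counts (0.051), while that of Mir192 was kept under each, with adjusted p from 3.7e-06 to 0.00011. Each side of these tests is 1 library, so they compare the reads of 2 libraries and not conditions. With the spread between the pups taken into account as a common dispersion, edgeR's exact test called 0 of the 4 genes, and 0 of them had an unadjusted p under 0.05. It called 0.309% of tested genes, 1 of 324, and 14 had an unadjusted p under 0.05. That dispersion was estimated from the same 2 libraries that it then compares, so differences of the usual size are absorbed into it and few calls can result.

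**Figure D4:**
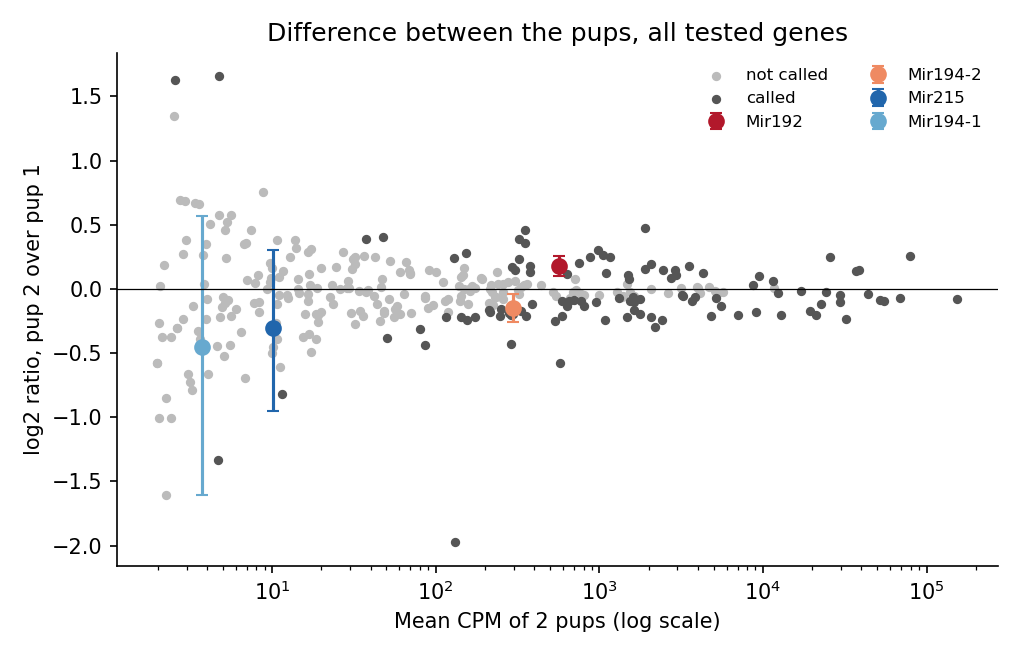
Log2 ratio of pup 2 over pup 1 against mean CPM (log axis) for 324 tested genes, dark where called by the exact binomial test, with 95% counting intervals for the 4 family genes. Mir192 lies above 0 at 0.18 and Mir194-2 below it at -0.15, and the intervals of Mir215 and Mir194-1 cross 0.

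In counts, which lack the miR-194-5p reads that match both clusters, the family's sum was low against that of other microRNAs known from the tubule epithelium. Its 4 genes held 0.0848% of all counts in pup 1 and 0.0896% in pup 2, with Wilson intervals of 0.0825 to 0.0872 and 0.0867 to 0.0927. A list of 13 other microRNAs known from the tubule, the miR-200 and miR-30 families with Mir204 and Mir211, held 9.49% and 8.74%. That was 105 times as much over both pups. How far the missing miR-194-5p reads would narrow this gap was not measured, nor which cells carried the reads of the list. Mir30e was the list's highest gene at 31966 ± 3330 CPM, and 8 of the 13 lay above Mir192, the highest of the family by counts. Mir30a (mean 21077 CPM) and Mir429 (17174) came next, and the median over the list was 1373 CPM. The list's sum thus rests mostly on its highest genes. Of the 12 tested genes of the list, 3 were called higher and 5 lower in pup 2 by the exact binomial test, against 12.7% and 21% of all tested genes. These calls rest on counting error alone, and the shares over all tested genes are not matched to the depth of the list. Both limits hold for the next lists too. The list's median log2 ratio was -0.04, as was that of all tested genes. Among those below Mir192 was Mir204, another microRNA known from tubule cells, with 358 CPM in pup 1 and 399 in pup 2.

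Other p53-responsive microRNAs were also compared, since miR-34, like miR-192, is induced by p53. In that list of 7 genes, 4 exceeded Mir192, and the highest was Mir200c at 3671 ± 128 CPM. Mir34c, the highest miR-34 gene, had 582 CPM in pup 1 and 495 in pup 2, a range that overlaps that of Mir192. All 7 were tested, 1 of them being called higher and 3 lower in pup 2, beside the same 12.7% and 21% of all tested genes. The median log2 ratio was -0.07, against -0.04 over all.

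The third list held 13 microRNAs studied with miR-192 in renal TGF-beta signalling, a pathway known for driving matrix production. It was led by Mir429 at 17174 ± 27.8 CPM, and 6 of the 13 exceeded Mir192. The miR-216a and miR-217 genes, placed downstream of miR-192 in mesangial cells, were nearly absent from these reads, with 0 counts of Mir216a in both pups, at the limits given above, and 5 and 3 counts of Mir217. Of 9 tested genes, 1 was called higher and 3 lower, again beside 12.7% and 21% of all, with a median log2 ratio of -0.07 against -0.04. The miR-200 genes stand in all of these lists in whole or part, so the lists are not independent. Levels of Mir30c-1, Mir30c-2, Mir107, Mir29b-1, Mir29b-2 and Mir29c in them are uncertain, because each shares 22 bases of hairpin with another gene. Mir30b, Mir30d and Mir145a had no hairpin in the RefSeq table and could not be checked for this.

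Whole kidney holds many cell types, and in such bulk tissue fewer cells of a type and less RNA per cell cannot be told apart. The tables hold microRNAs only, so the cells that carried these reads were not identified and the link to the proximal tubule is background. The epithelial miR-200 genes, 5 of 5 counted, held 3.16% of counts in pup 1 and 3.17% in pup 2. Hepatocytes are another known source of miR-192 and miR-194, and their defining marker Mir122 was not at 0, with 332 counts in pup 1 and 170 in pup 2 (50.6 ± 9.00 CPM). Mir122 had a log2 ratio of -0.38 (-0.66 to -0.12) and so was lower in pup 2, where Mir192 was higher and Mir194-2 lower. Of 5 markers of gut, liver or pancreas epithelium, Mir375 (129 ± 16.4 CPM) and Mir802 (48.3 ± 3.96) were counted, and Mir216a, Mir216b and Mir217 stood at 0 to 5 counts. By the exact binomial test, Mir375 was called in the direction of Mir192, at 0.24 in log2 units (0.07 to 0.40). Mir802 stood at -0.19 (-0.47 to 0.09) and was not called. The summed share of the 5 markers was 0.0170% in pup 1 and 0.0187% in pup 2. Among the markers of other cells, endothelial Mir126a took 7.20% and 8.72%, the 6 mesenchymal genes 4.03% and 4.46%, the 3 leukocyte genes with a row 0.0611% and 0.0561%, and the 3 erythroid genes 0.0241% and 0.00988%. The endothelial share and the summed mesenchymal and gut, liver or pancreas shares were higher in pup 2, as was Mir192. The leukocyte and erythroid shares were lower, as was Mir194-2, and the epithelial share was nearly the same. Genes differed in direction within the mesenchymal, erythroid and gut, liver or pancreas lists. The leukocyte genes Mir223, Mir150 and Mir155 had log2 ratios of -0.20, -0.19 and -0.08, and only Mir223 was called. Of the mesenchymal genes, Mir143 (log2 ratio 0.14) and Mir145a (0.12) were called higher and Mir199b (-0.18) lower, Mir199a-1, Mir199a-2 and Mir214 had ratios of -0.79, -0.16 and -0.03 that were not called, and the median of the 6 was -0.09. Mir199a-1, Mir199a-2 and Mir199b each share 22 bases of hairpin with another gene, so their levels and the mesenchymal sum are uncertain. Mir143, Mir145a, Mir122, Mir150 and Mir486 had no hairpin in the RefSeq table and could not be checked for this. The erythroid sum fell through Mir451a alone, with 1213 counts in pup 1 and 206 in pup 2, whereas Mir144 was called higher (32.2 and 42.9 CPM) and Mir486 had 4 and 9 counts. The part of these markers in the differences between the pups was not tested.

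With the count columns read as described below, reads on the strand opposite to the 4 genes were nearly absent. Mir192, Mir194-2 and Mir194-1 had 0 such reads in both pups, and Mir215 had 0 in pup 1 and 1 in pup 2. Counts of either strand were thus the same as counts of the gene's own strand for all but Mir215, where pup 2 had 36 in place of 35.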

How the data were processed

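MicroRNA sequencing of 2 whole-kidney samples was used, 1 library per pup. The authors deposited raw read counts for each microRNA gene, with no normalisation, and the accompanying notes name mm10 and annotation release M4. For the aligner, trimming and filters, nothing is given in the sources used here. The 3 count columns have no header. Each column with its row of unassigned reads came to the same total, which does not tell the strands apart. They were read as either strand, strand of the gene and opposite strand, and the second was used. For the 4 genes the second held all or nearly all counts of the first, and the third held 0 or 1. Rows that name no gene, 41.8% and 42.6% of reads, stayed out of library totals. Of 1973 identifiers, 1894 matched GENCODE M21, the 4 genes among them.

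Levels are CPM of all named genes. The pups were compared over 324 genes of mean count 10 or more by an exact two-sided binomial test given TMM effective library sizes (edgeR 4.0.16), with Benjamini-Hochberg adjustment over all of them and a threshold of 0.05. Log2 ratios use a prior count of 0.5. The test was checked on simulated data in which 200 genes were changed before the filter on counts. Those data held counting error only, so the check says nothing of the spread between pups. edgeR's quasi-likelihood test has no residual degrees of freedom between 2 single libraries. Wilson, Poisson and binomial intervals (95%, SciPy 1.17.1) and the 3-count floor reflect counting error alone, since no molecular identifiers mark independent molecules. Alternatives used DESeq2 1.42.0 size factors, library totals, other denominators and other filters.

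The family, the comparison lists and the tests were chosen with earlier results of these data known. Genes named are the 4 members, the 2 nearest genes in level on each side of each, and the highest gene of each list. Others were chosen after their values were seen.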

Additional observations from a re-analysis of the deposited data

How the results depend on the processing

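The share of the 4 genes in all counts, 0.0872% in the mean of both pups, was 0.0504% with all reads of the tables as the denominator, 0.103% without Mir10a in the denominator and 0.0573% for Mir192 and Mir215 alone. Every share of all 4 genes lacks the miR-194-5p reads that match both clusters. Under TMM or DESeq2 scaling and counts of either strand the 4-gene share moved by less than the SD between pups, as did the 5 ratios between genes or clusters with counts of either strand. Leaving out a pup gives the other pup's value, 0.0848% to 0.0896% for the share, and with 2 pups that shift is always smaller than the SD, so it says nothing of stability. The 109 genes called between the pups became 1 with edgeR's exact test and the dispersion of the same pups, and were 97, 96 and 95 with library totals, DESeq2 size factors and no filter on low counts. No direction of a family gene between the pups turned under these settings. The pup comparison cannot be run without a pup, and no paired analysis was possible because there is 1 group. Depth limits Mir215 and Mir194-1, with 12 to 65 counts a library.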
